A study of Arabidopsis thaliana with 32 samples.

Results

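The genes described here are those of the plastid genome of Arabidopsis thaliana, taken as every row of the deposited gene count table whose identifier begins with ATCG. There were 133 such rows among 33341, and 132 of them had counts. ATCG00040 had 0 counts in each of the 8 RNA-seq libraries. The libraries were made from leaves of 3-week-old Col-0 plants of 4 genotypes, with 2 libraries each: wild type, atxr5/atxr6, gcn5, and atxr5/atxr6/gcn5, which joins the mutations of both. The genes they are named for encode nuclear enzymes, ATXR5 and ATXR6 being methyltransferases and GCN5 an acetyltransferase of histones, so none of the genotypes is labelled with a lesion in the plastid genome. The labels name no alleles. The comparisons ask how transcripts of plastid genes stood against each other and against nuclear transcripts in each mutant. The 24 chromatin samples of the series were not analysed here.

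Chloroplasts keep a small circular genome that encodes parts of photosystems I and II, the cytochrome b6f complex, ATP synthase and the NDH complex, the large subunit of Rubisco, and part of the plastid ribosome and RNA polymerase. The other subunits of these complexes, and most proteins that transcribe and process plastid RNA, are encoded in the nucleus and imported. Plastid genes are transcribed by a bacterial-type polymerase, whose core is plastid-encoded and whose sigma factors are nuclear, and by nuclear-encoded phage-type polymerases. In land plants much of the plastid genome is read as multi-gene transcripts, and a part of it, which holds the plastid rRNA genes, is present as an inverted repeat. In leaves, plastid RNA is a large part of all RNA.

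The reference table lists 129 plastid genes, 85 of them protein genes, 37 tRNA genes and 7 rRNA genes, but pairs 0 of the 133 ATCG identifiers with a gene name. The plastid genes are therefore given by identifier, with no name, class or function attached. Counts came from total RNA after depletion of ribosomal RNA, and the files give no gene lengths, so a member's share of the plastid counts depends on its length as well as on the abundance of its transcript. Gene counts per library ran from 24860332 to 43969417, of which the plastid rows took 43.2% to 57.4%. The 4 leaf markers fixed for the check of the tissue summed to 13414 to 24718 nuclear CPM, which are counts per 1000000 effective nuclear counts, and the 2 seed markers to at most 0.113, so the leaf label held, and the 3 root markers summed to 28.8 to 71.9, all of it PYK10 but for 1 count of RHD6. In the atxr5/atxr6 libraries the ATXR5 counts were 36 and 26, against 150 and 83 in wild type, and the ATXR6 counts were 10 and 6 against 21 and 12, or 0.564 and 0.505 against 1.18 and 1.17 nuclear CPM. In atxr5/atxr6/gcn5 ATXR5 had 7 and 5 counts, but ATXR6 had 18 and 11, or 1.50 and 0.955 nuclear CPM, on either side of wild type. Its change from wild type there was 0.06 ± 0.34, adjusted p = 0.897, so ATXR6 did not check that part of the label. The gcn5 label could not be checked in this way, because GCN5 had 132 and 129 counts in gcn5 and 245 and 110 in wild type, or 13.6 and 12.3 against 13.8 and 10.8 nuclear CPM. Libraries are called gcn5 below as their labels have it.

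Among the 132 rows with counts, 36 formed 18 pairs whose counts were close to identical in every library. The largest ratio between partners was 0.070 on the log2 scale, and in 16 of the 18 pairs the partners differed by less than counting noise. The identifiers of the pairs ran in mirrored order, from ATCG00830 with ATCG01310 to ATCG00990 with ATCG01140. Partners are not independent measurements, and counted once per pair there were 114 members with counts.

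Plastid counts were uneven. ATCG00020 took 44.4% of them on average over the 8 libraries and ATCG00490 took 14.9%, while the median row took 0.0629%. Only 10 rows averaged over 1%, 42 lay between 0.1% and 1%, and 81 lay below 0.1%. After ATCG00020 and ATCG00490, the highest were ATCG01180 and ATCG00950 with 6.55% and 6.54%, ATCG01210 and ATCG00920 with 3.28% and 3.27%, then ATCG00340, ATCG00280, ATCG00350 and ATCG00680 with 1.69%, 1.67%, 1.57% and 1.38%. ATCG01180 with ATCG00950, and ATCG01210 with ATCG00920, are partners in pairs whose shares were highest in the libraries labelled gcn5.

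**Figure D1:**
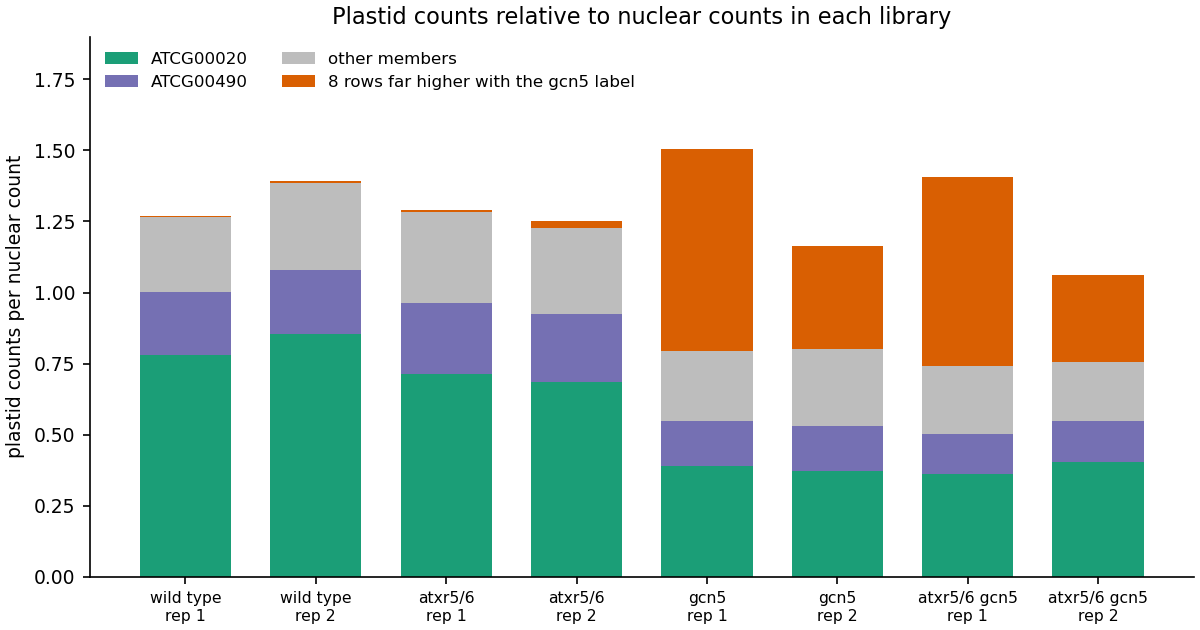
Plastid counts per nuclear count in each of the 8 libraries, as stacked bars of ATCG00020, ATCG00490, the other 122 rows and 8 rows that were more than 8-fold higher in gcn5 than in wild type. The whole bars, which count both partners of each pair, overlap between genotypes (1.06 to 1.50). Without the 8 rows the 4 bars with the gcn5 label reach 0.743 to 0.803 and the other 4 reach 1.23 to 1.39.

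The share of ATCG00020 separated the libraries by the gcn5 label. It held 61.6% and 61.4% of plastid counts in the wild-type replicates, 55.3% and 54.8% in atxr5/atxr6, 25.9% and 32.1% in gcn5, and 25.8% and 38.0% in atxr5/atxr6/gcn5. Every library with the label lay below every library without it, and atxr5/atxr6 lay below wild type. The mean was 30.4% ± 5.84 (SD, n = 4) with the label and 58.3% ± 3.74 without it, a difference of -27.9 percentage points with p = 0.0286 by a two-sided exact permutation test. That is the smallest p that 4 libraries against 4 can give, and it became 0.0571 after Benjamini-Hochberg adjustment over the 2 ratios tested. A part of the difference came from the denominator: with the 8 rows described next left out, the shares were 61.8% and 61.7% in wild type, 55.7% and 55.9% in atxr5/atxr6, 48.9% and 46.5% in gcn5, and 48.7% and 53.3% in atxr5/atxr6/gcn5. Under this count the groups still did not overlap, and the difference was -9.43 points. ATCG00490 held 16.8% ± 0.844 (SD, n = 2) of all plastid counts in wild type, 19.2% ± 0.0684 in atxr5/atxr6, 12.1% ± 2.17 in gcn5 and 11.8% ± 2.52 in atxr5/atxr6/gcn5, below wild type with the label. With the 8 rows left out it held 16.8% ± 0.816 in wild type, 19.5% ± 0.107 in atxr5/atxr6, 19.8% ± 0.135 in gcn5 and 19.0% ± 0.0855 in atxr5/atxr6/gcn5, above wild type, so the direction turned with the denominator. The 122 remaining rows held 21.4% ± 0.855 in wild type, 24.7% ± 0.208 in atxr5/atxr6, 32.5% ± 1.80 in gcn5 and 30.0% ± 3.33 in atxr5/atxr6/gcn5.

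A set of 8 rows stood apart from the others. ATCG00920, ATCG00950, ATCG00960, ATCG00970 and their partners ATCG01210, ATCG01180, ATCG01170 and ATCG01160 were 3.45 to 7.52 higher in gcn5 than in wild type on the log2 scale, whereas the next member, ATCG00590, was 1.80 higher. This set was drawn from its values and is given as a description, with no test. Levels here and below are in nuclear CPM. For ATCG00950 they were 1242 and 2723 in wild type, 3471 and 8756 in atxr5/atxr6, 225192 and 110978 in gcn5 and 204985 and 95265 in atxr5/atxr6/gcn5. For ATCG00920 they were 645 and 1271 in wild type, 1474 and 4189.9 in atxr5/atxr6, 111965 and 57518 in gcn5 and 101208 and 47637 in atxr5/atxr6/gcn5. In both rows atxr5/atxr6 replicate 2 was the highest library without the gcn5 label, and replicate 1 exceeded replicate 2 in both genotypes that carry it. ATCG00970 was far less abundant, at 2.03 and 2.64 in wild type, 3.61 and 7.49 in atxr5/atxr6, 706 and 129 in gcn5 and 739 and 206 in atxr5/atxr6/gcn5. ATCG00960 was at 7.33 and 16.1 in wild type, 18.7 and 41.5 in atxr5/atxr6, 172 and 77.9 in gcn5 and 212 and 83.9 in atxr5/atxr6/gcn5. In all 4 the lowest library with the label lay above the highest without it.

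Together the 8 rows held 38.5% ± 9.99 (SD, n = 4) of plastid counts in the libraries labelled gcn5 and 0.883% ± 0.762 in the other 4. Without atxr5/atxr6 replicate 2 the second of these was 0.513%. The 4 nuclear rows that RefSeq annotates as rRNA were also high in the libraries labelled gcn5. They held 6.51% ± 1.41 (SD, n = 4) of all gene counts with the label and 0.441% ± 0.421 without it, or 0.237% when atxr5/atxr6 replicate 2 was left out. Per nuclear count, the plastid set was 97.3-fold higher in gcn5 than in wild type, and 65.7-fold to 152-fold when 1 library was left out (gcn5 replicate 1 and wild-type replicate 2). The annotated rRNA rows were 45.4-fold higher, and 29.2-fold to 75.3-fold without the same libraries. In atxr5/atxr6 the plastid set was 3.12-fold higher than in wild type, 1.71-fold without atxr5/atxr6 replicate 2 and 4.89-fold without wild-type replicate 2. For the annotated rRNA rows the values were 3.90-fold, 1.97-fold and 6.47-fold. The labels state that ribosomal RNA was depleted and give no batch, so what remained after depletion and the gcn5 genotype cannot be told apart in these libraries.

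**Figure D2:**
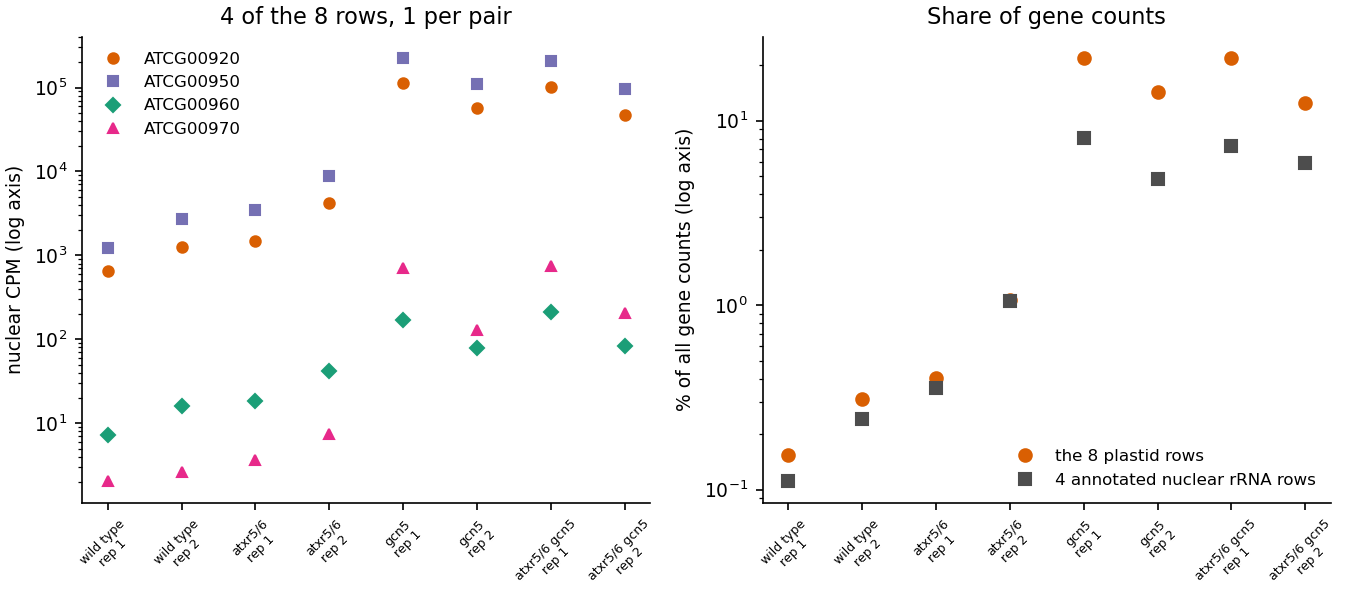
Left, nuclear CPM (log axis) in each library of ATCG00920, ATCG00950, ATCG00960 and ATCG00970, each 1 partner of a pair. Right, the share of all gene counts (log axis) held by the 8 plastid rows and by the 4 annotated nuclear rRNA rows. Both sets are highest in the 4 libraries labelled gcn5, where the plastid rows hold 12.4% to 21.9% of gene counts, and atxr5/atxr6 replicate 2 is the highest of the others at 1.07% for the plastid rows and 1.05% for the nuclear rows.

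The plastid total, with both partners of each pair counted, overlapped between libraries with and without the gcn5 label. The total without the 8 rows was lower in each library with the label. Plastid counts per nuclear count were 1.27 and 1.39 in wild type, 1.29 and 1.25 in atxr5/atxr6, 1.50 and 1.16 in gcn5 and 1.41 and 1.06 in atxr5/atxr6/gcn5. The groups overlapped, and the 4 libraries labelled gcn5 (1.28 ± 0.206, SD, n = 4) were not separated from the other 4 (1.30 ± 0.063), with a difference of -0.017 and p = 0.971 by a two-sided exact permutation test, also 0.971 after adjustment. With 1 row of each pair the difference was -0.264 (p = 0.0286, exact permutation test), a setting chosen after the data were seen. Without the 8 rows the values were 1.26 and 1.39 in wild type, 1.28 and 1.23 in atxr5/atxr6, 0.795 and 0.803 in gcn5 and 0.743 and 0.756 in atxr5/atxr6/gcn5. The 4 libraries with the label then lay below the other 4. The ratio to wild type was 0.603 in gcn5, 0.566 in atxr5/atxr6/gcn5 and 0.947 in atxr5/atxr6, and atxr5/atxr6/gcn5 had 0.597 of the value of atxr5/atxr6. Much of this lay in ATCG00020 and ATCG00490: the 122 remaining rows together had 0.915 of the wild-type value in gcn5, 0.792 in atxr5/atxr6/gcn5 and 1.09 in atxr5/atxr6. All these ratios divide by plain sums of nuclear counts, whereas nuclear CPM divides by effective sizes. Those averaged 13987720 against a sum of 15076870 in wild type, and 10089776 against 9541576 in gcn5. In nuclear CPM the libraries with the label therefore stand lower against the others than in these ratios. As the tissue was whole leaf, fewer plastid-rich cells and less plastid RNA per cell cannot be told apart. Markers of other cell types moved with the label as well. SUC2, the sucrose transporter of phloem companion cells, was at 202 to 279 nuclear CPM without the label and 84.1 to 91.8 with it (-1.58 ± 0.082 in gcn5 against wild type, adjusted p = 3.6e-05), and was also called lower in atxr5/atxr6 (-0.42 ± 0.079, adjusted p = 0.0138). The 2 guard cell markers, FAMA and MYB60, summed to 19.9 to 24.3 without the label and 10.1 to 13.1 with it, and both were called lower in gcn5 and in atxr5/atxr6/gcn5 against wild type. PYK10, the 1 root marker with enough counts to test, was called higher in both (0.96 ± 0.23 and 1.02 ± 0.23). Of 3 flower markers 0 were called in gcn5, and of 7 senescence markers 1 was higher. The part of these in the plastid values was not tested.

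Each member was next tested against nuclear genes, with library sizes set by the nuclear rows alone, and called at an adjusted p under 0.05 over all 19575 genes tested (edgeR quasi-likelihood test, Benjamini-Hochberg). All 132 members with counts passed the filter on low counts. Fold changes are on the log2 scale and are followed by their standard error. In gcn5 against wild type 14 members were higher and 41 lower. Over all genes 37.1% were called, 17.1% higher and 20.0% lower, so the share of members called, 41.7%, was near that of the table and the share called lower, 31.1%, was above it. Counted once per pair, 10 were higher and 38 lower of 114. Without the 8 rows 6 were higher and 41 lower of 124, with a median of -0.18 and a range from -1.29 to 1.80, beside a median of -0.01 over all genes.

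ATCG00020 fell most in gcn5. Its level was 844693 and 916065 in wild type, 757561 and 714685 in atxr5/atxr6, 371063 and 350211 in gcn5 and 336655 and 378096 in atxr5/atxr6/gcn5. The libraries with the gcn5 label were all below those without it, and the change from wild type was -1.29 ± 0.18, adjusted p = 0.00176. ATCG00490 was at 237969 and 241173 in wild type, 263465 and 249859 in atxr5/atxr6, 151076 and 148385 in gcn5 and 130647 and 134972 in atxr5/atxr6/gcn5, again with no overlap between the libraries with and without the label, and fell by 0.68 ± 0.15 on the log2 scale (adjusted p = 0.00922, or 0.0597 without gcn5 replicate 2). ATCG00680, the tenth member by share, was at 21520.1 and 24688 in wild type, 24083 and 21725 in atxr5/atxr6, 13489 and 15335 in gcn5 and 12439 and 10974 in atxr5/atxr6/gcn5. It changed by -0.68 ± 0.14, adjusted p = 0.00694.

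Some members with neighbouring identifiers were called lower. ATCG00420, ATCG00430 and ATCG00440 changed by -1.12 ± 0.097, -0.94 ± 0.096 and -1.07 ± 0.12 in gcn5 against wild type, with adjusted p = 0.000281, 0.000499 and 0.000654. For ATCG00430 the levels were 2276 and 2504 in wild type, 2667 and 2499 in atxr5/atxr6, 1227 and 1259 in gcn5 and 1136 and 1041 in atxr5/atxr6/gcn5, about even within each genotype. ATCG00210 changed by -1.01 ± 0.088, adjusted p = 0.000282 and ATCG00700 by -0.97 ± 0.15, adjusted p = 0.0023. The next identifiers, ATCG00710, ATCG00720 and ATCG00730, changed by -0.60 ± 0.10, -0.57 ± 0.12 and -0.61 ± 0.11, with adjusted p = 0.00379, 0.00966 and 0.00469. ATCG00470 and ATCG00480, which precede ATCG00490, changed by -0.60 ± 0.088 and -0.56 ± 0.10, with adjusted p = 0.0021 and 0.00498. Without gcn5 replicate 1 the adjusted p of ATCG00720 was 0.0596. These members were chosen after their values were seen.

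Other abundant members were not called in gcn5. ATCG00340 was at 20814 and 26378 in wild type, 25332 and 22169.9 in atxr5/atxr6, 19698 and 23366 in gcn5 and 19915 and 16049 in atxr5/atxr6/gcn5. Its change from wild type was -0.13 ± 0.17, adjusted p = 0.577. ATCG00280 was at 19155 and 29194 in wild type, 26990.2 and 25455 in atxr5/atxr6, 17689.6 and 20994 in gcn5 and 19186 and 14813 in atxr5/atxr6/gcn5, with replicates of wild type farther apart than the genotype means, and its change was -0.32 ± 0.21, adjusted p = 0.267. ATCG00350, whose identifier follows ATCG00340, was at 18834 and 24526 in wild type, 23586 and 20204 in atxr5/atxr6, 18436 and 21771 in gcn5 and 18922 and 15154 in atxr5/atxr6/gcn5 and changed by -0.11 ± 0.18, adjusted p = 0.664.

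Outside the 8 rows, 6 members were higher in gcn5 than in wild type. ATCG00590 was at 115 and 122 in wild type, 193 and 260.3 in atxr5/atxr6, 418 and 405 in gcn5 and 433 and 183 in atxr5/atxr6/gcn5 and changed by 1.80 ± 0.34, adjusted p = 0.00576. The gcn5 replicates were alike, whereas those of atxr5/atxr6/gcn5 lay far apart. ATCG00220 changed by 0.98 ± 0.30, adjusted p = 0.0344, ATCG00510 by 0.96 ± 0.27, adjusted p = 0.0241 and ATCG00690 by 0.77 ± 0.24, adjusted p = 0.0356. For ATCG00510 the levels were 439 and 474 in wild type, 572 and 669 in atxr5/atxr6, 928 and 853 in gcn5 and 924 and 465 in atxr5/atxr6/gcn5. ATCG01020 changed by 0.54 ± 0.16, adjusted p = 0.029 and ATCG00030 by 0.37 ± 0.094, adjusted p = 0.0172. Of these calls only that of ATCG00590 held whichever library was left out. Those of ATCG00220, ATCG00690 and ATCG01020 were lost without any 1 library of wild type, atxr5/atxr6 or gcn5 (adjusted p from 0.0522 to 0.146), and that of ATCG00510 without any 1 of wild type or gcn5 (0.0655 to 0.104). That of ATCG00030 was lost without wild-type replicate 1 (0.0607) or either gcn5 replicate (0.0747 and 0.0678), and with library totals (0.432). Outside the 8 rows ATCG00590 differed most between the replicates of atxr5/atxr6/gcn5, by 1.24 on the log2 scale with replicate 1 higher, and the 8 rows differed the same way by 1.09 to 1.84. The part of this in the higher values was not tested.

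**Figure D3:**
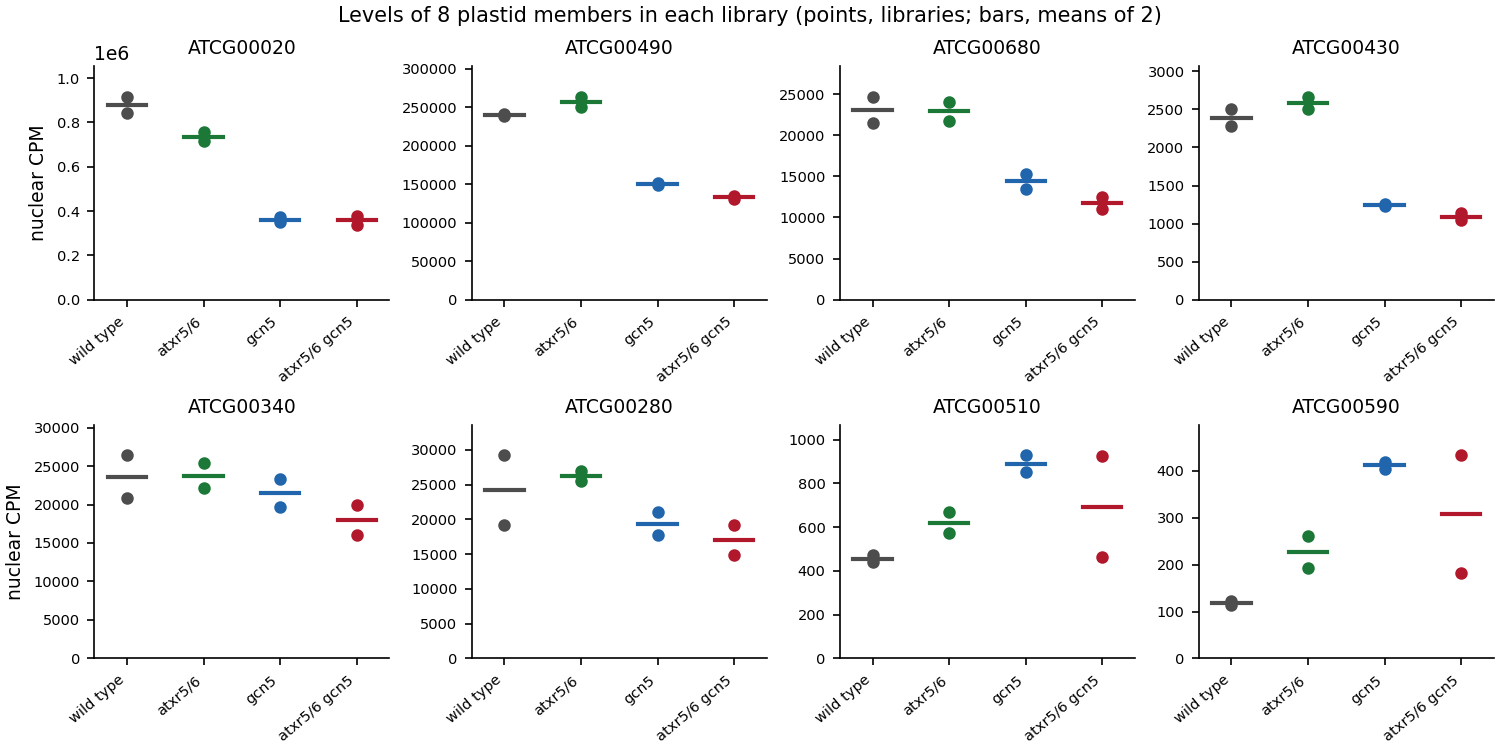
Levels in nuclear CPM (linear axes from 0) of 8 plastid members by genotype, with a point for each library and a bar at the mean of 2. ATCG00020, ATCG00490, ATCG00680 and ATCG00430 are lower in the 4 libraries labelled gcn5, ATCG00340 and ATCG00280 overlap between wild type and gcn5, and in ATCG00510 and ATCG00590 the replicates of atxr5/atxr6/gcn5 lie far apart (464.8 and 923.9, and 183 and 433).

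With library totals in place of nuclear sizes 31 of 132 members were called, 12 higher and 19 lower. Beside them 4838 of 19575 genes were called, a near-equal share. On nuclear sizes the median member was at -0.150 and -0.165 without gcn5 replicate 1 and 2. With the log2 share of 8 nuclear rows, the 4 annotated as rRNA and 4 chosen because they were high in the same libraries, as a covariate 0 members were called (6 at an unadjusted p under 0.05), and 0 genes of the whole table. That share follows the gcn5 label.

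More members were called in atxr5/atxr6/gcn5. Against wild type 9 members were higher and 78 lower, and outside the 8 rows 1 was higher and 78 lower of 124, with a median of -0.39. The table as a whole had 38.7% of genes called, 17.9% higher and 20.8% lower, against 65.9% of members called and 59.1% called lower. Counted once per pair, 5 were higher and 67 lower of 114. ATCG00020 changed by -1.30 ± 0.18, adjusted p = 0.00152, ATCG00490 by -0.85 ± 0.15, adjusted p = 0.00347, ATCG00680 by -0.98 ± 0.14, adjusted p = 0.00151 and ATCG00210 by -1.26 ± 0.089, adjusted p = 9.37e-05. ATCG00420, ATCG00430 and ATCG00440 changed by -1.21 ± 0.098, -1.13 ± 0.096 and -1.22 ± 0.12, each called. ATCG00590 alone was higher outside the 8 rows, by 1.38 ± 0.34, adjusted p = 0.0145; without wild-type replicate 1 its adjusted p was 0.0594. Library totals in place of nuclear sizes left 33 of 132 members called, 9 higher and 24 lower. Beside them 4887 of 19575 genes were called, a near-equal share. The rRNA covariate left 0 members, with 9 at an unadjusted p under 0.05, and 0 genes of the table.

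Against atxr5/atxr6, its parent without the gcn5 label, the combination had 8 members higher, all of them in the set of 8, and 96 lower. That was 78.8% of members called, where 35.2% of all genes were called (16.1% higher), and 72.7% of members called lower beside 19.1% of all genes. Counted once per pair, 4 were higher and 83 lower of 114. The median over the 124 was -0.58 and the range -1.28 to 0.44. The lowest were ATCG00440 at -1.28 ± 0.12, adjusted p = 0.000274, ATCG00420 at -1.25 ± 0.098, adjusted p = 0.000134 and ATCG00430 at -1.25 ± 0.096, adjusted p = 0.000128, with ATCG00210 next at -1.23 ± 0.089, adjusted p = 9.5e-05. ATCG00020 changed by -1.04 ± 0.18, adjusted p = 0.00363 and ATCG00490 by -0.95 ± 0.15, adjusted p = 0.0022. Without atxr5/atxr6 replicate 1 there were 62 calls, 6 higher and 56 lower. With library totals there were 67 of 132, 8 higher and 59 lower, beside 4386 of 19575 genes. With the rRNA covariate there were 0, with 32 at an unadjusted p under 0.05, and 12 genes of the table were called.

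In atxr5/atxr6 against wild type 2 members were called, both higher, where 12.9% of all genes were called and 5.74% were called higher. ATCG00030 was at 1832 and 1899.8 in wild type, 2508 and 2459 in atxr5/atxr6, 2415 and 2420.4 in gcn5 and 2069.5 and 1811 in atxr5/atxr6/gcn5 and rose by 0.41 ± 0.094, adjusted p = 0.0269. Its 2 atxr5/atxr6 libraries lay above both of wild type. ATCG00050 was at 184 and 180.2 in wild type, 243 and 235 in atxr5/atxr6, 209 and 224 in gcn5 and 190.1 and 166 in atxr5/atxr6/gcn5 and rose by 0.39 ± 0.094, adjusted p = 0.0315. Both calls were near the threshold, and neither held when any 1 library of wild type, atxr5/atxr6 or gcn5 was left out. The median member was 0.19 higher, beside 0.01 over all genes, with 27 members at an unadjusted p under 0.05. ATCG00020 changed by -0.26 ± 0.18, adjusted p = 0.387 and was not called.

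Adding atxr5/atxr6 to gcn5 gave no call among the members. In atxr5/atxr6/gcn5 against gcn5 0 of 132 passed by edgeR or DESeq2, with 44 at an unadjusted p under 0.05 in edgeR, in a comparison where 0.0920% of all genes were called. The median was -0.23, beside 0 over all genes, and outside the 8 rows 119 of the 124 members were below 0. That number holds both partners of each pair, and all members share the same library sizes. It therefore does not count independent changes. Without atxr5/atxr6/gcn5 replicate 1 there was 1 call. The interaction subtracts the gcn5 effect seen in wild type from the one seen in atxr5/atxr6. It also gave 0 calls by edgeR (0.521% of all genes were called), with 65 at an unadjusted p under 0.05. The median was -0.43, beside -0.006 over all genes. DESeq2 called 6 of the 132 members, all lower, and 556 of the 19575 genes. By edgeR a few members were called, all lower, without wild-type replicate 1, atxr5/atxr6/gcn5 replicate 1 or atxr5/atxr6/gcn5 replicate 2. The median interaction over the members was then -0.36, -0.44 and -0.34. The larger number of calls in the combination than in gcn5 alone is therefore not shown to be a difference between them by edgeR. For ATCG00020 the interaction was 0.25 ± 0.25, adjusted p = 0.659 and for ATCG00590 -1.36 ± 0.47, adjusted p = 0.199.

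To see which members moved against the rest of the plastid genome, the fits were repeated with library sizes set by the typical plastid member. These sizes hold the median member near 0, so a shift shared by the members is taken out beforehand. On this within-plastid scale the median of all genes shifted, to 0.13 in gcn5 against wild type, 0.39 in atxr5/atxr6/gcn5 against wild type and 0.60 against atxr5/atxr6, and to -0.17 in atxr5/atxr6 against wild type. In gcn5 against wild type 22 members were higher and 24 lower (36.7% of all genes were called, 22.6% higher and 14.1% lower), or 14 and 24 outside the 8 rows. All 24 were among the 41 lower on the nuclear scale, and 17 of the 41 were not called here. The 14 higher held the 6 of the nuclear scale and 8 more. ATCG00020 was the lowest at -1.14 ± 0.18, adjusted p = 0.00136, followed by ATCG00420 at -0.97 ± 0.11, adjusted p = 0.00033, ATCG00440 at -0.92 ± 0.11, adjusted p = 0.000444 and ATCG00210 at -0.87 ± 0.12, adjusted p = 0.000778. ATCG00490 was at -0.53 ± 0.15, adjusted p = 0.0212, and without gcn5 replicate 2 its adjusted p was 0.104, while 4 other alternatives also took it over the threshold. ATCG00590 was the highest outside the 8 rows at 1.94 ± 0.31, adjusted p = 0.00153, followed by ATCG00220 at 1.13 ± 0.26, adjusted p = 0.00875 and ATCG00510 at 1.11 ± 0.24, adjusted p = 0.00631.

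Some of the lower calls lay in runs of 3 or more successive identifiers: 10 of 24 in gcn5 against wild type, 10 of 21 in atxr5/atxr6/gcn5 against wild type and 3 of 10 against atxr5/atxr6. In gcn5 against wild type the runs were ATCG00420 to ATCG00440 (3 members, -0.97 to -0.80), ATCG00470 to ATCG00490 (3 members, -0.53 to -0.42) and ATCG00700 to ATCG00730 (4 members, -0.82 to -0.42). The same 3 runs were called lower in atxr5/atxr6/gcn5 against wild type, a comparison with the same wild-type libraries, at -0.81 to -0.73, -0.45 to -0.35 and -0.48 to -0.38. Many of these calls rested on single libraries. In gcn5 those of ATCG00470 to ATCG00490 and ATCG00710 to ATCG00730 were each lost without either gcn5 library (adjusted p from 0.0533 to 0.116), and in atxr5/atxr6/gcn5 those of ATCG00470 to ATCG00490 and ATCG00700 to ATCG00730 were each lost without at least 1 wild-type library (0.0664 to 0.119). Against atxr5/atxr6 the first run was called, at -0.70 to -0.67. Higher calls in runs of 3 or more were those of the 8 rows, ATCG00950 to ATCG00970 and ATCG01160 to ATCG01180. Whether members of a run share a transcript was not tested.

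**Figure D4:**
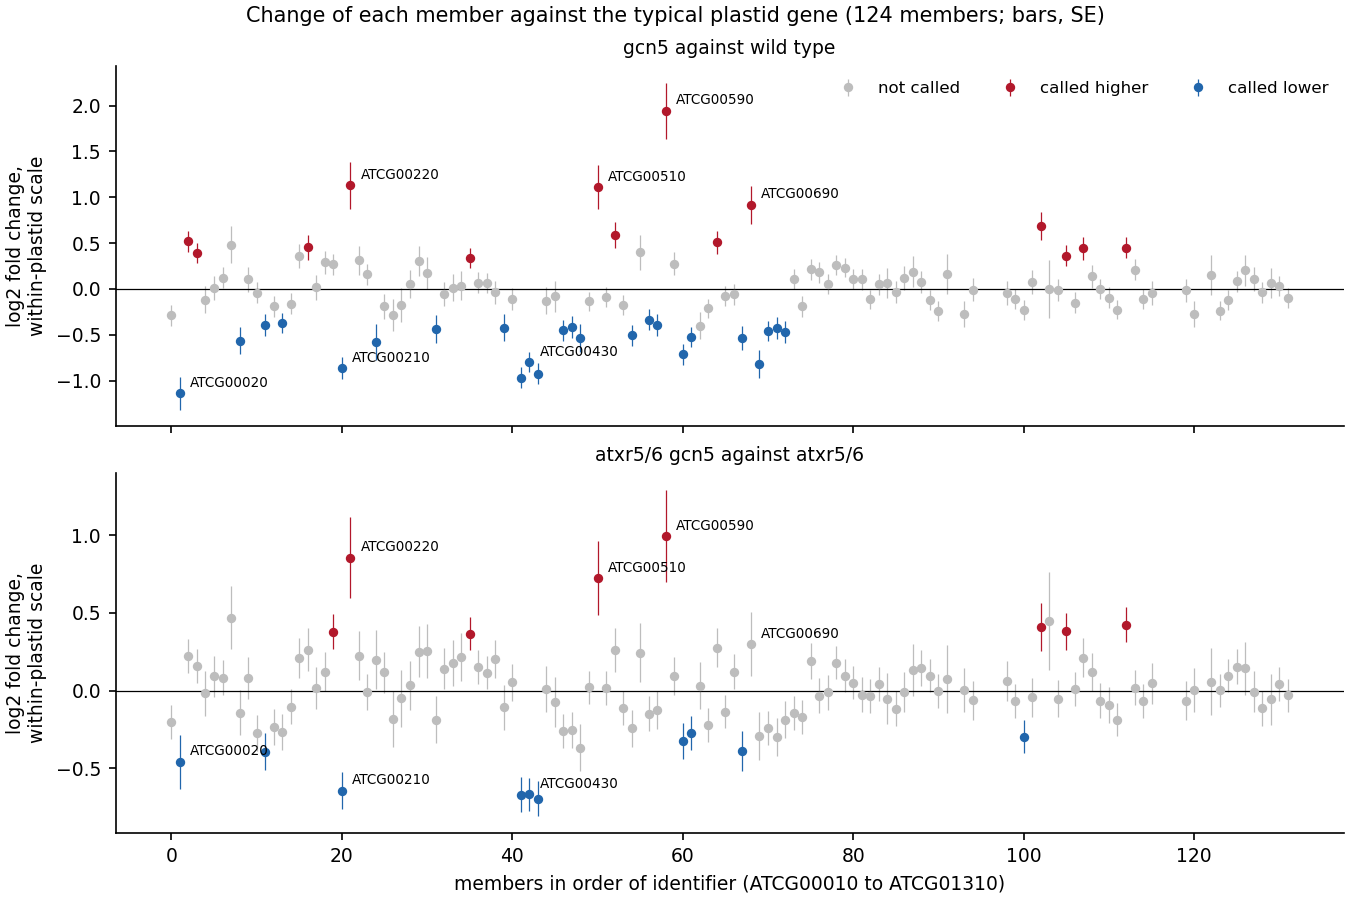
Log2 fold change on the within-plastid scale of 124 members, in order of identifier, in gcn5 against wild type (top) and atxr5/atxr6/gcn5 against atxr5/atxr6 (bottom), with bars for the standard error; red marks members called higher and blue members called lower. ATCG00020 is lowest in the top panel (-1.14) and ATCG00590 highest in both (1.94 and 1.00), while ATCG00420 to ATCG00440 are blue in both.

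In atxr5/atxr6/gcn5 against wild type the within-plastid counts were 23 higher and 21 lower (54.3% of all genes called, 44.5% higher and 9.78% lower), and outside the 8 rows 15 and 21. Of 78 members lower on the nuclear scale 57 were not called against the typical plastid member. Against atxr5/atxr6 16 were higher and 10 lower (64.5% of all genes called, 58.0% higher and 6.46% lower), and outside the 8 rows 8 and 10. Of the 96 members lower against nuclear genes 86 were not called on this scale, which by its making takes out a shared shift (median member 0.018). ATCG00020 was at -0.46 ± 0.17, adjusted p = 0.0398 in that comparison, a call that was lost when either atxr5/atxr6 library was left out (adjusted p = 0.115 and 0.117) and without atxr5/atxr6/gcn5 replicate 1 (0.0845). ATCG00210, ATCG00420, ATCG00430 and ATCG00440 were at -0.64 ± 0.12, -0.67 ± 0.11, -0.67 ± 0.11 and -0.70 ± 0.11, each called. No member was called in atxr5/atxr6 against wild type (8 at an unadjusted p under 0.05, 17.9% of all genes called), in atxr5/atxr6/gcn5 against gcn5 (1, and 0.179%) or in the interaction (5, and 19.5%). In the first of these a few calls appeared without wild-type replicate 2 or either atxr5/atxr6/gcn5 library. In the interaction a few appeared without gcn5 replicate 1 or atxr5/atxr6/gcn5 replicate 1. DESeq2 was not run on this scale. With the plastid total as library size 4461 of 19575 genes were called in gcn5 and 5938 in atxr5/atxr6/gcn5 against wild type. Among the 132 members the calls were fewer for their number, 13 higher and 6 lower in gcn5 and 11 higher and 5 lower in atxr5/atxr6/gcn5. No library was left out under the plastid total. With sizes set by the typical plastid member, calls in gcn5 were fewest without gcn5 replicate 2. In the combination against atxr5/atxr6 they were fewest without atxr5/atxr6 replicate 1, then without atxr5/atxr6 replicate 2 and atxr5/atxr6/gcn5 replicate 1.

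Nuclear genes for plastid proteins gave a second view of the same libraries. Of 36 nuclear genes for subunits of the plastid complexes, 35 were tested, and in gcn5 against wild type 0 were higher and 29 lower, with a median of -0.70, where 17.1% of all genes were called higher and 20.0% lower. In atxr5/atxr6/gcn5 0 were higher and 31 lower against wild type (median -0.75, beside 20.8% of all genes called lower), and 0 and 33 against atxr5/atxr6 (median -0.87, beside 19.1%). In atxr5/atxr6 against wild type 6 were higher and 0 lower, beside 5.74% of all genes called higher. RBCS2B, a small subunit of Rubisco, was at 2548 and 2073 in wild type, 3424 and 3259 in atxr5/atxr6, 550.1 and 443 in gcn5 and 512 and 477 in atxr5/atxr6/gcn5 and changed by -2.22 ± 0.14, adjusted p = 9.59e-05 in gcn5. PSAF, a subunit of photosystem I, changed by -0.89 ± 0.10, adjusted p = 0.00084, PETC, the Rieske protein of the cytochrome b6f complex, by -0.71 ± 0.084, adjusted p = 0.000851, and PSAE-1, another photosystem I subunit, by -0.93 ± 0.11, adjusted p = 0.000975. The plastid members outside the 8 rows had a median of -0.18 in the same comparison and all genes tested one of -0.01. With the rRNA share as a covariate none of these nuclear genes was called in gcn5 against wild type, as 0 genes of the table were. The 4 leaf markers, which are nuclear photosynthesis genes too, summed to 22318 to 24718 nuclear CPM without the gcn5 label and 13414 to 16514 with it, and their part in the result was not tested.

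The list of plastid transcription genes, with 20 members, had 11 higher and 1 lower in gcn5 against wild type, with a median of 0.36, beside 17.1% of all genes called higher and 20.0% lower. RPOTp, a phage-type RNA polymerase of plastids, was at 39.3 and 30.0 in wild type, 45.9 and 39.2 in atxr5/atxr6, 80.6 and 82.7 in gcn5 and 63.5 and 82.4 in atxr5/atxr6/gcn5 and rose by 1.23 ± 0.17, adjusted p = 0.00149. RPOTmp, its relative found in mitochondria and plastids, rose by 1.52 ± 0.14, adjusted p = 0.000342. PTAC10 and PTAC12, proteins bound to the plastid-encoded polymerase, rose by 1.23 ± 0.11, adjusted p = 0.000332 and 0.88 ± 0.12, adjusted p = 0.00147. In atxr5/atxr6 4 of the 20 were higher and 0 lower, beside 5.74% of all genes called higher. Among them SIG1, a sigma factor, was at 63.0 and 63.6 in wild type, 118 and 121 in atxr5/atxr6, 86.9 and 90.4 in gcn5 and 95.6 and 86.3 in atxr5/atxr6/gcn5 and rose by 0.92 ± 0.089, adjusted p = 0.00145. SIG1 was the 1 gene of the list called in the interaction, at -0.88 ± 0.13, adjusted p = 0.0392, beside 0.521% of all genes. That call was lost without wild-type replicate 2, either atxr5/atxr6 library or either gcn5 library (adjusted p from 0.0578 to 0.279), and with library totals (0.177), the rRNA covariate (0.138) or the replicate block (0.068). In atxr5/atxr6/gcn5 8 were higher and 1 lower against wild type (17.9% and 20.8% of all genes), and 3 higher and 2 lower against atxr5/atxr6 (16.1% and 19.1%). SIG5, a light- and stress-responsive sigma factor, was 1 of those 2, at -0.82 ± 0.10, adjusted p = 0.00099.

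Among 18 genes of plastid RNA processing and stability, 5 were higher and 6 lower in gcn5 against wild type, 3 and 7 in atxr5/atxr6/gcn5 against wild type, 1 and 9 against atxr5/atxr6, and 1 and 0 in atxr5/atxr6 against wild type. Of all genes 37.1%, 38.7%, 35.2% and 12.9% were called in these comparisons. CSP41B, an RNA-binding protein that protects plastid transcripts, was at 684 and 660.3 in wild type, 761 and 742 in atxr5/atxr6, 336 and 303 in gcn5 and 281 and 339.9 in atxr5/atxr6/gcn5 and changed by -1.07 ± 0.11, adjusted p = 0.000518 in gcn5. HCF173 and HCF244, both needed for translation of the psbA mRNA, changed by -0.73 ± 0.10, adjusted p = 0.00178 and -0.67 ± 0.13, adjusted p = 0.00532. CP29A, a chloroplast ribonucleoprotein, rose by 0.74 ± 0.11, adjusted p = 0.00234, whereas its relative CP31A was -0.73 ± 0.11, adjusted p = 0.0022 in atxr5/atxr6/gcn5 against wild type. RNE, the plastid RNase E, was the 1 gene called in atxr5/atxr6, at 0.53 ± 0.085, adjusted p = 0.00778, and its call was lost without either atxr5/atxr6 library (adjusted p = 0.108 and 0.0702), with library totals (0.0892) and with the rRNA covariate (0.0982).

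**Figure D5:**
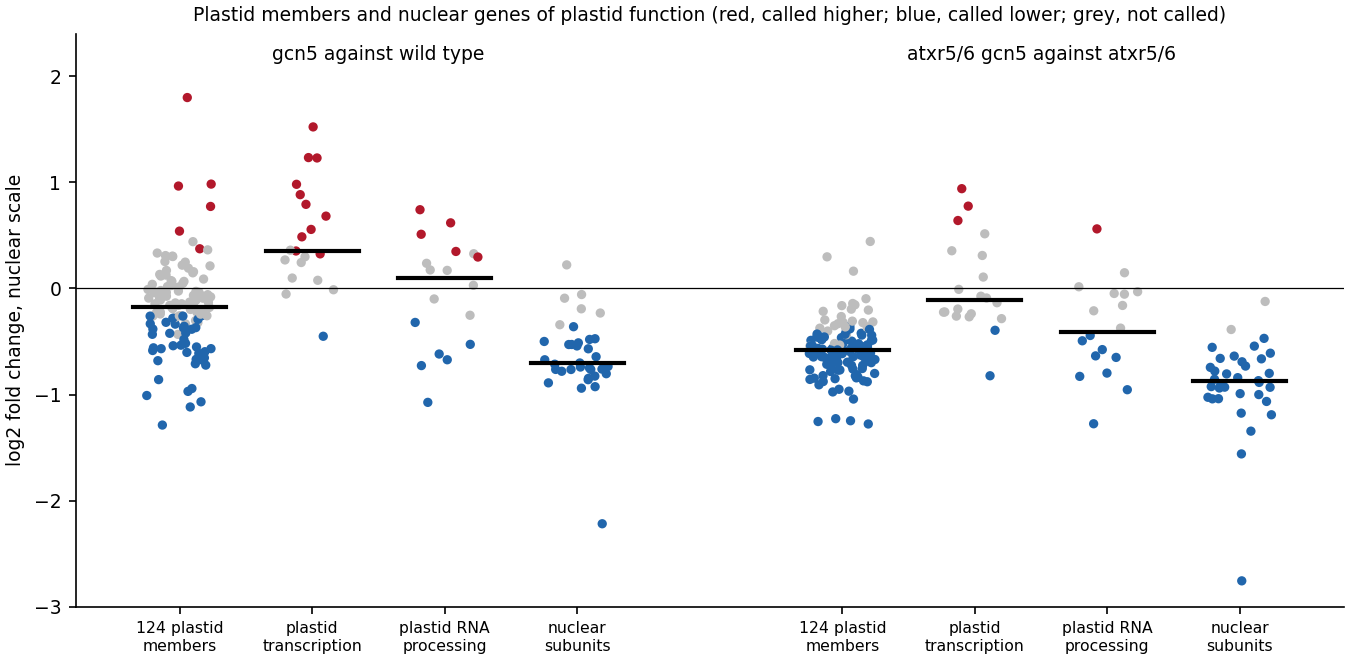
Log2 fold change on the nuclear scale of 124 plastid members (without the 8 rows) and of 3 lists of nuclear genes, in gcn5 against wild type (left) and atxr5/atxr6/gcn5 against atxr5/atxr6 (right). Points are genes, red called higher and blue called lower, and black bars are medians; nuclear subunits lie at -0.70 and -0.87, plastid members at -0.18 and -0.58, and plastid transcription genes at 0.36 and -0.11.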

How the data were processed

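The deposited gene table holds raw read counts per gene, as read from its values, which are whole and sum differently by library. The table of transposable elements was not used. Per the labels' protocols, stranded libraries were made from total RNA after depletion of plant ribosomal RNA. The submitters' processing notes name STAR 2.7.2a, featureCounts 1.6.4, DESeq2 1.26 and the build TAIR10. How reads that map to both copies of a repeat were counted is not given in the sources used here.

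Counts were tested in R 4.3.3 with edgeR 4.0.16 (glmQLFit, glmQLFTest), fitting all 8 libraries together by genotype, which left 4 residual degrees of freedom. filterByExpr at its minimum count of 10 kept 19575 genes. Nuclear-scale sizes were sums of AT1G to AT5G rows without 8 rRNA-type rows, times their TMM factor; 4 of those rows were chosen from their values. Within-plastid sizes were medians of ratios over plastid rows. SE is the absolute log2 fold change over the square root of F. P-values were adjusted by Benjamini-Hochberg over all genes, and the procedure was tested on simulated data. The labels do not say that replicates were separate plants or cultures, so p-values measure the spread between libraries, which may be technical. Counting replicates of a genotype as 1 library was not needed, since their chi-square per degree of freedom over genes was 21.5 to 84.6.

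Members and lists were chosen with earlier results of these data known. Values in every library are given for the 10 members with the highest mean share of plastid counts (for partners of a pair, of 1 partner), and up to 4 called genes of smallest p per nuclear list and comparison may be named; other members and the set of 8 rows were named after their values were seen. The planned shares by gene class were not made, because the reference table pairs no plastid identifier with a name. Alternatives included DESeq2 1.42.0.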

Additional observations from a re-analysis of the deposited data

How the results depend on the processing

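On the nuclear scale, library totals in place of nuclear sizes gave 9 calls among the members in atxr5/atxr6 against wild type, 31 in gcn5 against wild type, 33 in atxr5/atxr6/gcn5 against wild type, 67 against atxr5/atxr6 and 5 in the interaction. Of all 19575 genes 1979, 4838, 4887, 4386 and 707 were called in the same order. Without the low-count filter there were 10 calls in atxr5/atxr6 against wild type and 12 in the interaction, where DESeq2 gave 6. Over all genes there were 3346, 956 and 556 in the same order. With the rRNA share as a covariate there were 0 in atxr5/atxr6, gcn5 and atxr5/atxr6/gcn5 against wild type and 0 against atxr5/atxr6. Of all genes 531, 0, 0 and 12 were called in the same order. Under that covariate ATCG00960 turned to -2.33, -2.07 and -1.55 (gcn5 and atxr5/atxr6/gcn5 against wild type, and the latter against atxr5/atxr6), ATCG00970 to -0.82 and -0.49 in the first 2 of these, ATCG00220, ATCG00510, ATCG00690 and ATCG01020 to -0.27, -0.22, -0.15 and -0.098 in gcn5, and ATCG00590 to -0.24 in atxr5/atxr6/gcn5 against wild type. The covariate separates the genotypes as the gcn5 label does, and the cause of these changes was not tested.

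On the within-plastid scale, the plastid total as library size gave 9, 19, 16, 12 and 5 calls in atxr5/atxr6, gcn5 and atxr5/atxr6/gcn5 against wild type, the latter against atxr5/atxr6, and the interaction. Of all 19575 genes 1624, 4461, 5938, 4217 and 552 were called in the same order. No filter gave 11, 3 and 11 in atxr5/atxr6 against wild type, atxr5/atxr6/gcn5 against gcn5 and the interaction, where 4496, 968 and 4954 genes were called. The cause was not tested. The difference in plastid counts per nuclear count became -0.417 with the 8 rRNA-type nuclear rows kept in the denominator. Of these rows 4 were chosen because they were high with the gcn5 label. Together the 8 held 17.3% of gene counts with it and 1.05% without it. Keeping them lowers the ratio in the labelled libraries beforehand, so no test is given. The difference was -0.515 without the 8 plastid rows and -0.264 with 1 row of each pair (p = 0.0286, exact permutation test). The last 2 settings were chosen after seeing the data. The difference in the share of ATCG00020 became -9.43 points without the 8 rows.

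Leaving out 1 library at a time gave 0 to 11 nuclear-scale calls in atxr5/atxr6, 28 to 61 in gcn5 and 62 to 85 in atxr5/atxr6/gcn5 against wild type, 62 to 107 against atxr5/atxr6, 0 to 1 against gcn5 and 0 to 4 in the interaction. Within the plastid the ranges were 0 to 3, 23 to 50, 30 to 42, 12 to 31, 0 to 0 and 0 to 5. The ratio difference ranged from -0.0907 to 0.0569 and turned positive without replicate 2 of wild type (0.0131), gcn5 (0.0226) or atxr5/atxr6/gcn5 (0.0569). The share difference ranged from -30.4 to -26.3 points. The number of genes called over the whole table also changed with the library left out.

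Over all genes the replicate numbers did not pair the libraries: differences between replicates 1 and 2 correlated at -0.15 to 0.17 between genotypes. Over the plastid rows alone they correlated at 0.76 between wild type and atxr5/atxr6 and 0.67 between gcn5 and atxr5/atxr6/gcn5. Between libraries with and without the gcn5 label they correlated at -0.80 to -0.46. These correlations include the 8 rows, and none was made without them. In the 8 rows the log2 ratio of replicate 1 to 2 was -1.15 to -0.38 in wild type and -1.51 to -1.03 in atxr5/atxr6. It was 0.95 to 2.45 in gcn5 and 1.09 to 1.84 in atxr5/atxr6/gcn5. The other members ranged from -0.61 to 0.30, -0.43 to 0.45, -0.32 to 0.62 and -0.34 to 1.24 in the same order. With the replicate number as a block the nuclear-scale calls were 1, 48, 81, 103, 0 and 0, in the order of comparisons above. Those within the plastid were 0, 35, 36, 20, 0 and 0. Of all genes 2266, 6682, 7127, 6446, 8 and 42 were called on the nuclear scale. On the within-plastid scale these were 3107, 6632, 10165, 12333, 31 and 2903. The block is 1 shift shared by all genotypes, so it cannot take up replicate differences that turn with the label. Of 2302 values of named genes under single alternatives, 1998 kept direction and call, 294 kept direction only and 10 turned. Genes entered this tally only in comparisons where they were called, and the alternatives were unlike in weight. Under the rRNA covariate alone 2 values kept direction and call, 96 kept direction only and 10 turned. A plastid total without rRNA and tRNA rows could not be made, as no identifier is paired with a type. Depth was not the limit for most members, but with 2 libraries a genotype an exact test cannot go below p = 0.333 for a single value.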

Other observations

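Mitochondrial rows, the other organelle genome of the table, stood apart as a total by the gcn5 label, in the opposite direction to most plastid rows. They had 17.1 and 19.0 counts per 1000 nuclear counts in wild type, 19.1 and 19.5 in atxr5/atxr6, 31.5 and 32.0 in gcn5 and 35.4 and 28.3 in atxr5/atxr6/gcn5, with no overlap between the 4 libraries with the label and the 4 without it. This total sums all 152 mitochondrial rows, of any type, and was not split by row, so the part of single rows in it is not known. No test was made on it.

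Among the 8 rows that stood apart, ATCG00920 and ATCG00950 kept close to 1 ratio while their levels changed. ATCG00920 had 0.519 and 0.467 counts per count of ATCG00950 in wild type, 0.425 and 0.479 in atxr5/atxr6, 0.497 and 0.518 in gcn5 and 0.494 and 0.50 in atxr5/atxr6/gcn5. ATCG00970 and ATCG00960 did not keep theirs: ATCG00970 lay below ATCG00960 in every library without the gcn5 label and above it in every library with it.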
